A study of Saccharomyces cerevisiae with 12 samples.

Results

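The bodies of long genes are the coding sequences of nuclear protein-coding genes that span at least 3000 bp and hold no intron. They were taken from the annotation of the Saccharomyces cerevisiae reference genome, build R64, which is the assembly known as sacCer3. Of 6002 nuclear protein-coding genes, 512 met this rule, and 510 of them held CpG sites with enough reads to be measured. Their length ranged from 3003 to 14733 bp with a median of 3832.5 bp, and together they covered 18% of the nuclear genome. Each coding sequence was divided into its first 1000 bp, counted from the first base of the start codon, its last 500 bp and the middle between them. A further 15 genes of this length carried an intron and were left out.

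The data come from ODM-seq, in which the CpG methyltransferase M.SssI is added to formaldehyde-crosslinked yeast chromatin, the DNA is read on a Nanopore device, and a CpG that stays unmethylated counts as occupied. All samples were grown from a strain labelled BY4741 in which the essential DNA-binding factor Abf1 carries an anchor-away tag and a V5 tag (ABF1-aa-V5, clone A9), on medium without leucine, and all received rapamycin at 8 µg/mL for 75 min to take the tagged protein out of the nucleus. The constructs were pRS315 plasmids: wild-type ABF1 (WT Abf1), no insert (no Abf1), or an ABF1 variant whose essential motif, a short stretch of a disordered region, has its residues in shuffled order (EM shuffle). The study reports EM shuffle as inviable. Its designed variants lack the other disordered region of Abf1 and carry an added nuclear localization signal, and most a Flag tag. EM shuffle thus differs from WT Abf1 by more than the motif. Each construct had 2 biological replicates from separate transformants, and each of these 6 preparations was methylated for 3 h and for 4 h, which gave 12 libraries. Both incubations of a preparation are aliquots of 1 chromatin sample and were summed, so n was 2 per construct throughout. The WT Abf1 and no Abf1 libraries carried one date label and the EM shuffle libraries another, so that for every comparison with EM shuffle the date and the construct cannot be told apart.

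In yeast, the transcribed part of a gene is packed into a regular row of nucleosomes that starts at the first nucleosome downstream of the promoter and becomes less regular towards the 3′ end. General regulatory factors such as Abf1 and Reb1 bind short motifs in promoters, and ATP-dependent remodelers space the neighbouring nucleosomes against such a barrier. The inside of a long coding sequence lies far from either end and is therefore a place where occupancy and phasing can be read away from promoters, and where a motif of a regulatory factor may occur within coding DNA.

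Sequences are shown for some of the places in long bodies where occupancy differed between constructs. The first set gives consensus matches of Abf1 inside coding sequence, 33 bases each on the strand of the match, from the R64 reference. Capitals mark the letters that the Abf1 consensus specifies, and the lower-case run between the capitals is its unspecified spacer. The first 4 had the largest differences of all such matches in members, and the next 4 lie next to a stop codon.
YIL082W-A, chrIX:207452-207484, minus strand: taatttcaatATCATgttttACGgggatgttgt
YGR109W-B, chrVII:709349-709381, minus strand: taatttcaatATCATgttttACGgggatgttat
YFL002W-A, chrVI:138513-138545, minus strand: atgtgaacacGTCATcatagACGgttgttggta
MNN4, chrXI:66365-66397, plus strand: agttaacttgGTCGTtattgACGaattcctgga
TSC11, chrV:343351-343383, minus strand: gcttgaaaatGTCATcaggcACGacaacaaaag
PSD2, chrVII:840502-840534, plus strand: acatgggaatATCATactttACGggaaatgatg
GLT1, chrIV:149229-149261, plus strand: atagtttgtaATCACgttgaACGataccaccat
STU1, chrII:153843-153875, minus strand: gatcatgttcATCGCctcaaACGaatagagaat

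The second set gives 2 stretches of 200 bp on the coding strand in which occupancy rose without Abf1. Neither stretch holds an Abf1 match, while both genes have one elsewhere in their coding sequence and one upstream. Capitals mark the CG dinucleotides, which are the only positions at which occupancy was read. SEC16 is covered by 6 of them in its first 200 bases, all in the second part of the stretch, and POM152 by 6 in bases 401 to 600, at both ends of the stretch.
SEC16 bases 1 to 200, chrXVI:387067-387266, plus strand: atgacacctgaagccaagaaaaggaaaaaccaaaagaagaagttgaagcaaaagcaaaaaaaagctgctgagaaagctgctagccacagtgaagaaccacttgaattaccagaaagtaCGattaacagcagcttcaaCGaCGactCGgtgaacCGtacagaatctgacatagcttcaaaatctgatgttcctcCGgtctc
POM152 bases 401 to 600, chrXIII:528204-528403, plus strand: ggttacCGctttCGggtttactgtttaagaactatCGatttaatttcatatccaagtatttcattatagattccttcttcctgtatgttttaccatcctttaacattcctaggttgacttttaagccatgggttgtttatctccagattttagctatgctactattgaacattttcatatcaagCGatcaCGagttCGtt

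The members held 59998 of the CpG sites that passed the coverage minimum, which was 17% of all such sites. Of these, 15128 lay in the first 1000 bp, 37616 in the middle and 7254 in the last 500 bp, and a member held a median of 107 sites. The libraries contained between 13253872 and 37756743 nuclear calls, with a median coverage per CpG between 32 and 94, and the median member was read by 3648.5 to 10334.5 calls per library. The members without data were LYS2, with 60 calls over all 12 libraries on 59 of its 114 CG sites, and the Ty2 gene YCL019W, with 2970 calls. BY4741 is known to carry LYS2 and to lack MET17, whereas here all 34 CG sites of MET17 had at least 5 calls in every library, so that the strain label was not borne out at these loci. In 65 members more than 20% of the sequence was repeated elsewhere in the genome, most of them gag-pol genes of Ty retrotransposons, and reads of such copies may have been exchanged. Results are given without them where that matters.

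The plasmids were looked at through the coverage of ABF1. This gene was covered 1.77 to 2.04 times as deeply as the members on its own chromosome XI in WT Abf1, where plasmid and chromosome both carry it, and 0.834 to 1.06 times in no Abf1. In the libraries labelled EM shuffle the ratio was 0.896 to 1.09, which overlaps the range of the empty plasmid. The 28 members on chromosome XI were covered 2.14 and 2.03 times the genome-wide median in replicate 2 of EM shuffle, 1.16 and 1.19 times in replicate 1, and 0.982 to 1.08 times in the other libraries. Whether that plasmid holds a sequence that would not align was not tested, and these samples are called the libraries labelled EM shuffle below.

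Long bodies were densely occupied. Mean occupancy over whole members, with each member weighted equally, was 77.2% and 80.0% in the 2 WT Abf1 replicates, 78.5% and 77.6% without Abf1, and 79.2% and 79.7% in the libraries labelled EM shuffle. These values include the correction factor by which the study scaled methylation of each construct to the same level. CpG sites in members were occupied 7.90 ± 0.797 percentage points (SD, n = 6 preparations) above all other nuclear CpG sites. This excess was 7.58 and 7.82 points in WT Abf1, 7.18 and 7.08 without Abf1, and 8.78 and 8.94 in the libraries labelled EM shuffle, without overlap between constructs. It was 0.569 ± 0.185 points smaller without Abf1 than in WT Abf1, and larger under the EM shuffle label by 1.17 ± 0.203 than in WT Abf1 and by 1.74 ± 0.132 than without Abf1 (exact permutation tests, p = 0.333 each, the lowest value that 2 against 2 preparations can give). Promoter CpGs, here those that lie 51 to 250 bp before a start codon in noncoding DNA, reached 47.3% and 49.2% in WT Abf1. They reached 50.1% and 49.5% without Abf1, and 44.7% and 44.4% in the libraries labelled EM shuffle. As the correction brings the constructs to the same level, the excess of members also depends on these and other sites outside them. The middle of a long body thus stood far above the promoters in each preparation.

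Occupancy was lower at both ends of the coding sequence than in the middle. In the first 1000 bp it was 75.0% and 77.7% in WT Abf1, 75.9% and 75.0% without Abf1, and 76.5% and 77.5% in the libraries labelled EM shuffle. In the middle the same preparations gave 78.6%, 81.4%, 79.8%, 78.9%, 80.6% and 81.0%. In the last 500 bp they gave 74.9%, 77.7%, 77.1%, 76.1%, 77.1% and 77.0%. The first 1000 bp lay 3.76 ± 0.227 percentage points below the middle (SD, n = 6), lower in all 6 preparations (p = 0.03125 in an exact test over all sign flips, two-sided, which is the lowest value 6 preparations can give). The last 500 bp lay 3.37 ± 0.532 points below the middle, again in 6 of 6 (p = 0.03125, same exact test). Without repeated members the differences fell to 2.88 points for the first 1000 bp and were 3.62 points for the last 500 bp. Among single members, the first 1000 bp were lower than the middle in every preparation in 327 and higher in every preparation in 52, and for the last 500 bp these counts were 332 and 30. The plot of segment occupancy in the 12 libraries shows that the WT Abf1 replicates differed by more than the means of the constructs.

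**Figure D1:**
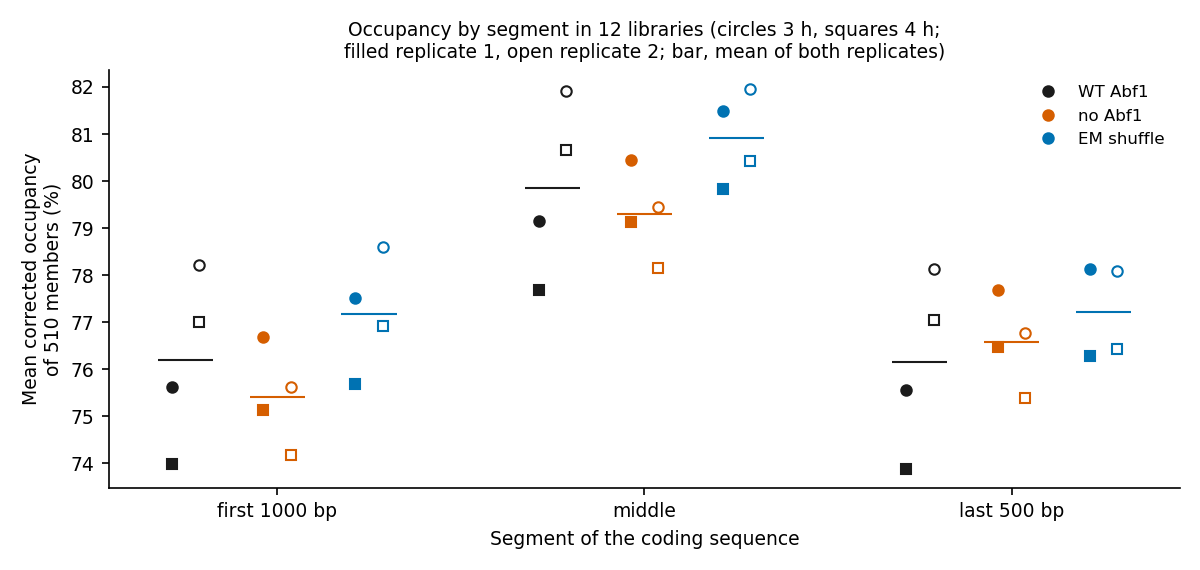
Mean corrected occupancy (%) of 510 long gene bodies in the first 1000 bp, the middle and the last 500 bp. Circles are 3 h and squares 4 h libraries, filled symbols replicate 1 and open symbols replicate 2, and bars the mean of both replicates of a construct. In each library the middle lies above both ends, and the symbols of the 3 constructs overlap within each segment.

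Aligned at the start codon, the members without repeated sequence showed a damped wave. Occupancy averaged over the 6 preparations was lowest between bases 81 and 100, at 66.9%, and the following minima lay at bases 241 to 260 with 69.7%, at 401 to 420 with 72.1% and at 561 to 580 with 75.0%. The maxima between them reached 79.5% at bases 161 to 180, 79.9% at 301 to 320, 81.6% at 481 to 500 and 82.0% at 661 to 680. Thus the maxima differed by little, whereas each minimum was less deep than the one before. A cosine with a period of 160 bp fitted to these members had a mean amplitude of 4.78 points in bases 1 to 500 and 2.60 in the next 500 bp, and of 1.51, 0.686, 0.197 and 0.527 points in the 4 windows of 500 bp that follow up to base 3000. Towards the stop codon, occupancy was lower than inside the body, as seen in the right-hand panel of the plot of occupancy by distance.

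**Figure D2:**
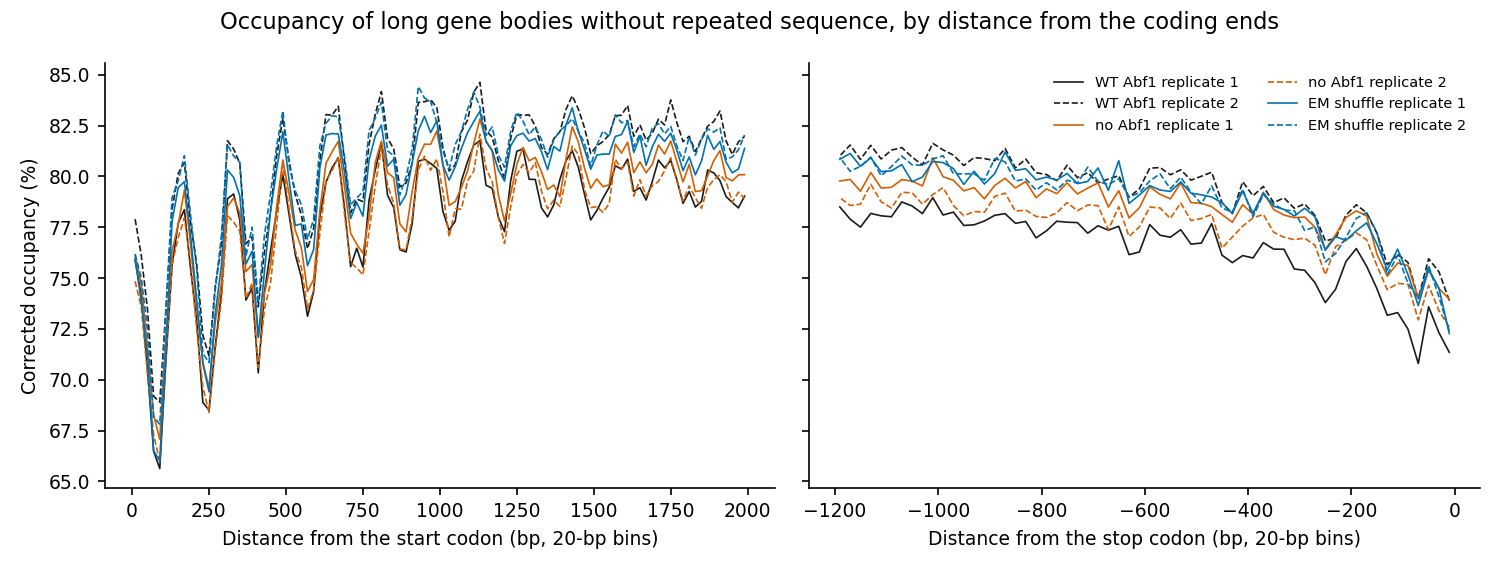
Mean corrected occupancy (%) of CpG sites in 20-bp bins for the 446 long bodies without repeated sequence, against the distance (bp) from the start codon (left) and from the stop codon (right). Each line is 1 of 6 preparations, coloured by construct with replicate 2 dashed. All 6 lines share the minimum of 66.9% on average at bases 81 to 100 and a wave that flattens into the body.

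Regular spacing was also measured in the middle, without alignment to the start codon. A phasing index was defined as the correlation of occupancy between CpG pairs of the same gene at 150 to 180 bp minus that at 70 to 100 bp, so that 0 means no regular spacing. In the middle of the members the index was 1.03 and 0.956 in WT Abf1, 1.04 and 1.04 without Abf1, and 0.867 and 0.851 in the libraries labelled EM shuffle. In the first 1000 bp it was 1.37, 1.31, 1.35, 1.36, 1.25 and 1.25, in the same order. In the last 500 bp it was 1.29, 1.27, 1.32, 1.35, 1.27 and 1.27. The first 1000 bp exceeded the middle by 0.352 ± 0.0314 (SD, n = 6; exact sign-flip permutation test, p = 0.03125). This difference was 0.143 when 1000-bp windows of equal size were compared. The variance of occupancy between CpG sites, around the mean of the whole coding sequence, was 252 squared percentage points in the first 1000 bp. It was 114 in the last 500 bp and 46.1 in the middle (mean of 6 preparations, counting error subtracted). This variance holds differences between sites of any kind, periodic or not, and so does not measure the size of the wave alone. In the middle, the correlation was −0.361 at a distance of 85 bp, 0.692 at 160 bp, −0.326 at 240 bp and 0.502 at 320 bp. The second maximum thus stood at 2 times the distance of the first.

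**Figure D3:**
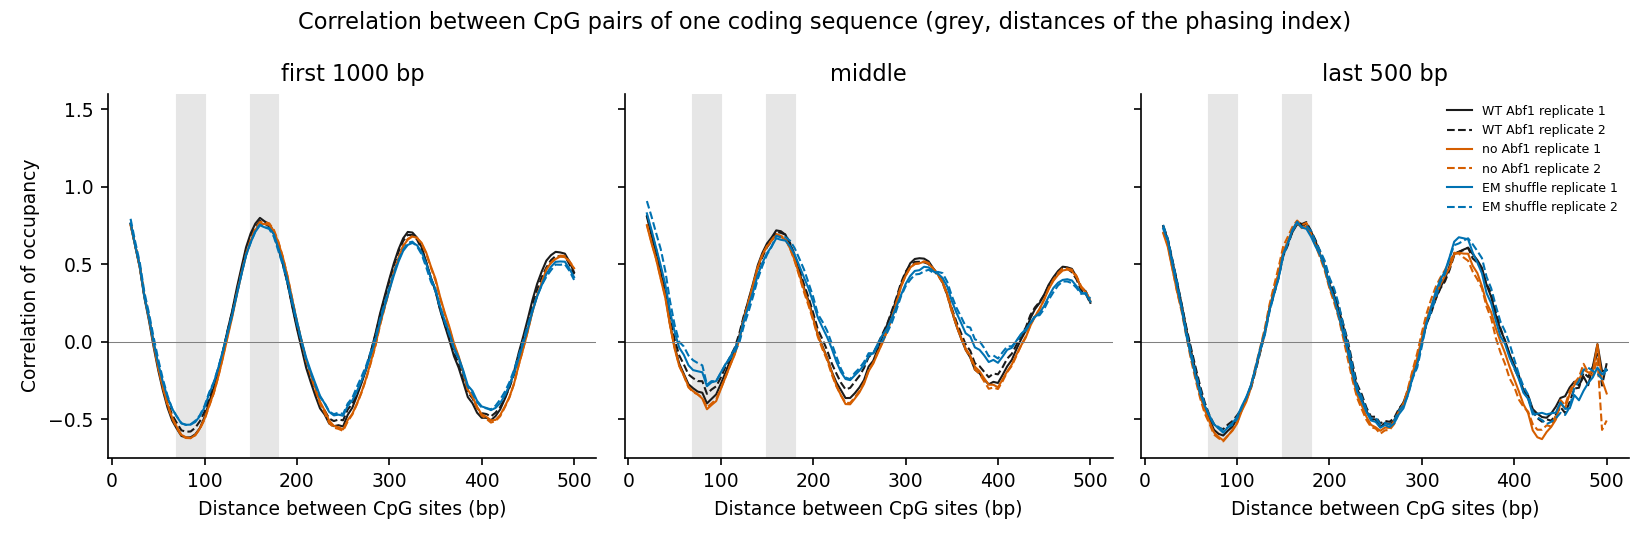
Correlation of occupancy between CpG pairs of 1 coding sequence against their distance (bp), in the first 1000 bp, the middle and the last 500 bp of 510 long bodies. Lines are the 6 preparations, and grey bands are the distances of the phasing index. The middle panel has its first maximum, 0.692 on average, at 160 bp, and minima less deep than in the other panels.

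The phasing index of the middle was 0.0437 higher without Abf1 than in WT Abf1, and 0.133 lower in the libraries labelled EM shuffle than in WT Abf1 (p = 0.333 for the latter in an exact permutation test). It was lower under the EM shuffle label than without Abf1 by 0.176 ± 0.0115 (p = 0.333, same exact test), which became 0.0534 with the 3 h aliquots only and 0.0940 without repeated members. The first difference changed sign when only the 4 h aliquots were used or repeated members were left out. In the first 1000 bp, no Abf1 differed from WT Abf1 by 0.0158, and the libraries labelled EM shuffle lay 0.0926 below WT Abf1 and 0.108 below no Abf1. The amplitude at bases 1 to 500 over all members was 4.53 and 4.29 points in WT Abf1, 4.07 and 4.17 without Abf1, and 4.64 and 4.38 in the libraries labelled EM shuffle. Both no Abf1 values lay below both WT Abf1 values, by 0.292 points on average.

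Absolute mean levels over whole members overlapped between WT Abf1 and the other constructs. No Abf1 minus WT Abf1 was −0.615 ± 2.09 percentage points (exact permutation test, two-sided, p = 1), and the libraries labelled EM shuffle differed from WT Abf1 by 0.793 ± 2.01 points (p = 1, same exact test). The difference of the first pair became 0.786 without WT Abf1 replicate 2, and that of the second pair became −0.608 without WT Abf1 replicate 1, since the WT Abf1 replicates themselves lay 80.0% against 77.2%. Against no Abf1, the libraries labelled EM shuffle were higher by 1.41 ± 0.745 points (p = 0.333 in the exact permutation test). The correction factor weighs on this last value, since the uncorrected difference was 5.00 points. Relative to the genome average of the same preparation, whole members lay 6.46 and 6.66 points higher in WT Abf1, 6.11 and 6.02 without Abf1, and 7.47 and 7.60 in the libraries labelled EM shuffle, and here the constructs did not overlap. The difference from WT Abf1 was −0.494 ± 0.158 points without Abf1 and 0.973 ± 0.170 under the EM shuffle label, and that between these last was 1.47 ± 0.108 (exact permutation tests, p = 0.333 each). These differences also depend on sites outside members, such as the promoter CpGs, whose occupancy differed between constructs. With respect to time, the middle lost 1.42 ± 0.161 points of occupancy from 3 h to 4 h in 6 of 6 preparations (exact sign-flip permutation test, p = 0.03125). Promoter CpGs lost 1.60 ± 0.448 points, and the difference between both losses was 0.175 points (p = 0.281, same exact test). The sign of this difference depended on the construct, with 0.0417 and 0.113 points in WT Abf1, −0.104 and −0.0862 without Abf1, and 0.628 and 0.459 in the libraries labelled EM shuffle, and the libraries labelled EM shuffle exceeded no Abf1 by 0.639 ± 0.120 points (exact permutation test, p = 0.333).

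Genes of medium length, 1693 coding sequences of 1500 to less than 3000 bp, were the most similar class for comparison. Whole long bodies exceeded them by 0.635 ± 0.112 percentage points (SD, n = 6), in 6 of 6 preparations (exact sign-flip permutation test, p = 0.03125). By segment, the first 1000 bp of long bodies lay 1.11 ± 0.0713 points below those of medium genes, in 6 of 6 preparations (p = 0.03125, same exact test), the middle 0.229 points above and the last 500 bp 1.02 points below. When repeated members were left out of the long class, with medium genes kept as they were, the middle lay 0.469 points above and the last 500 bp 1.04 points below. The first 1000 bp then differed by between −0.254 and 0.271 points, and by 0.0162 on average. Thus the classes differed in sign between the middle and the 3′ end. The whole-body difference was larger than that of any segment, and also depends on the share of the middle in a coding sequence. The middle held a median of 62 CpG sites in members and 15 in medium genes. How much this share contributed was not tested.

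Single members covered a narrow range. In WT Abf1 the lowest was 71.6%, the median 78.9% and the highest 84.0%, with 5% of members below 75.2% and 5% above 81.4%. The order was kept between the WT Abf1 replicates, with a Pearson correlation across members of 0.921. Length, GC content and CpG density had Spearman correlations with occupancy of −0.158, 0.165 and 0.0144 across members, which share all libraries. The members of lowest occupancy without repeated sequence were 3 ATP-binding cassette transporters: AUS1, a sterol importer, with 71.6% in WT Abf1, PDR15, a multidrug transporter, with 72.6%, and STE6, the exporter of the mating pheromone a-factor, with 73.5%. In AUS1 and PDR15 the low level lay in the first 1000 bp, at 60.8% and 64.3%. The 14 ABC transporters together had a median of 79.5%, above that of all members. The highest were SKG3 with 84.0%, NST1 with 83.1% and the inositol polyphosphate kinase gene VIP1 with 82.8%.

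The phasing index of single members, available for 508, was positive in all 6 preparations for 500 and negative in all 6 for 3. Its median was 1.26, with a 10th percentile of 0.708 and a 90th of 1.73. The index was a stable property of a member, since it correlated with r = 0.899 between the WT Abf1 replicates, 0.884 between WT Abf1 and no Abf1, and 0.914 between WT Abf1 and the libraries labelled EM shuffle. The negative members, chosen after their values were seen, were PDR15 with −0.42, RSF2 with −0.41 and the Ty1 gene YHR214C-B with −0.35. The most regular were TAF1, a subunit of the general transcription factor TFIID, with 2.42, the importin KAP122 with 2.41 and the cohesin gene SMC1 with 2.38. Longer members had a somewhat lower index, with a Spearman correlation with length of −0.273 across members.

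The 5 longest members were REA1, an ATPase of ribosome assembly, DYN1, the dynein heavy chain, TRA1, a scaffold of histone acetyltransferase complexes, TOM1, a ubiquitin ligase, and VPS13, a lipid transfer protein. Their middles held 387, 275, 251, 233 and 210 CpG sites. REA1 (YLR106C, chrXII, minus strand, 14733 bp) was occupied at 76.6% and 79.5% in WT Abf1, 77.2% and 77.2% without Abf1, and 79.0% and 80.1% in the libraries labelled EM shuffle. DYN1 gave 76.1%, 79.5%, 77.6%, 76.4%, 77.8% and 78.4%, and TRA1 gave 76.9%, 80.8%, 79.2%, 78.4%, 79.9% and 81.0%. In each the WT Abf1 replicates enclosed both no Abf1 values. TOM1 gave 79.0%, 82.0%, 80.1%, 79.6%, 80.1% and 81.2%, and VPS13 gave 77.1%, 80.8%, 78.7%, 78.6%, 80.1% and 79.7%. None of their 15 segments passed the test between no Abf1 and WT Abf1. With the EM shuffle label set against no Abf1, the middle of REA1 passed, with a log2 odds ratio of 0.17, while those of DYN1 (0.07), TRA1 (0.11), TOM1 (0.03) and VPS13 (0.08) did not (limma-moderated adjusted p between 0.212 and 0.954).

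Which long bodies changed upon loss of Abf1 was asked by a quasi-binomial model on methylated and unmethylated calls per segment, with dispersions moderated by limma and Benjamini-Hochberg adjustment over all 11209 segments of intron-less coding sequences. For segments the moderation gave all of them the same dispersion, 4.11. The spread between replicates of a single segment therefore did not enter its p. Differences are given as log2 odds ratios of occupancy relative to the genome average of each construct, with standard errors. That average corresponds to a shift of −0.09 without Abf1 and of 0.26 with the EM shuffle label, both set against WT Abf1, and of 0.35 between these 2. Without Abf1, 26 of 1530 member segments changed, 6 higher and 20 lower. This is 1.70% of the member segments, and 1.53% of all segments were called. The median log2 odds ratio was −0.04 in members and −0.03 over all segments. By place, 3 were higher and 12 lower in the first 1000 bp, where 2.6% of all first segments were called. In the middle 0 were higher and 8 lower (0.662% of all middles called), and in the last 500 bp 3 were higher and 0 lower (0.82% of all called). The count depended on single preparations: it was 165 without WT Abf1 replicate 1, 10 and 4 without no Abf1 replicate 1 or 2, and 11 without either replicate labelled EM shuffle. Without the offset for the genome average 123 segments were called, 3 higher and 120 lower. Over all coding sequences 13 middles were called, 8 of them in members. The middle of a member held a median of 62 CpG sites and that of a medium gene 15. The median log2 odds ratios of these middles were −0.05 and −0.03.

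SLA1, whose product links actin to endocytosis (YBL007C, chrII:215367-216366 for the first 1000 bp), had the largest fall in size. Its first 1000 bp were occupied at 80.6% and 83.3% in WT Abf1, 75.5% and 75.6% without Abf1, and 79.0% and 81.8% in the libraries labelled EM shuffle. All WT Abf1 libraries lay above all no Abf1 libraries, and the log2 odds ratio was −0.56 ± 0.11 (limma-moderated adjusted p = 4.21e-05). This call remained under all 18 alternatives tried. KAP120, a nuclear transport receptor, fell from 74.9% and 77.8% to 70.8% and 69.2% (−0.48, limma-moderated adjusted p = 0.000623). POM152, a membrane protein of the nuclear pore, fell from 69.0% and 71.5% to 64.6% and 63.2% (−0.43, limma-moderated adjusted p = 0.00043), and lay at 69.2% and 73.2% in the libraries labelled EM shuffle. PRP8, the central protein of the spliceosome, fell from 72.6% and 76.6% to 69.1% and 69.0% (−0.41). URB1, a nucleolar protein of ribosome assembly, fell by 0.40 and the Ty3 gene YGR109W-B by 0.38 on the log2 scale. The calls of KAP120 and POM152 were lost without WT Abf1 replicate 2 and without no Abf1 replicate 2, among others, and those of URB1 and YGR109W-B under 10 of 18 alternatives each.

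The other segments lower without Abf1 were the first 1000 bp of SAK1, FUN12, RAT1, HMG2, KIC1 and GDH2, with log2 odds ratios between −0.52 and −0.34, and the middles of RRP5, YBT1, URB1, GCN1, CDC25, PRP8, YGR161W-B and YJR029W, between −0.25 and −0.13. PRP8 and URB1 thus were lower in both segments. Of the segments that rose, 3 were at the 3′ end. In the last 500 bp, TPS3, a subunit of trehalose synthase, rose from 74.9% and 76.9% to 83.7% and 81.9% (log2 odds ratio 0.62 ± 0.14, limma-moderated adjusted p = 0.000786). LAM4, a sterol transfer protein, rose from 65.7% and 70.2% to 77.0% and 74.5% (0.56), and FAS2, the alpha subunit of fatty acid synthase, rose from 72.8% and 75.3% to 79.7% and 79.0% (0.44). At the 5′ end, AUS1 (0.29), the Ty1 gene YHR214C-B (0.51) and the Ty1 gene YJR029W (0.25) were higher. In FAS2 the libraries labelled EM shuffle were high too, at 81.2% and 79.8%, whereas in TPS3 they lay at 77.5% and 71.8%, near WT Abf1. The calls of LAM4, FAS2 and AUS1 were lost under 9, 11 and 12 of 18 alternatives, and that of TPS3 under 2 of 18.

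Tiles of 200 bp gave a finer view, because opposite differences within a segment cancel in its mean. Without Abf1, 140 of 10264 member tiles changed, 48 higher and 92 lower, in 90 members. This is 1.36%, below the 2.03% called among all 37560 tiles of intron-less coding sequences. Without the offset the count was 289, with 40 higher and 249 lower. In 17 members tiles were called in both directions, and 28 members had at least 2 called tiles. In the first 1000 bp 77 tiles were called, or 3.08% of those of members, where 2.89% of all such tiles were called. Calls were rarer further in, with 17 of 507 tiles at bases 1 to 200 and 19 of 501 at bases 401 to 600. In the tile that ends at base 1600 it was 3 of 496. Of all middle tiles of members 0.724% were called, and over all coding sequences 0.811% of middle tiles. The decline was thus not particular to members. Without no Abf1 replicate 1 or 2 the count was 91 or 61, and without WT Abf1 replicate 2 it was 77.

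POM152 (YMR129W, chrXIII, plus strand) showed differences of alternating sign along its first 1000 bp. Bases 1 to 200 were occupied at 69.2% and 71.6% in WT Abf1, 52.5% and 47.5% without Abf1, and 70.5% and 75.0% in the libraries labelled EM shuffle. Bases 401 to 600 gave 56.3% and 54.0%, then 77.2% and 75.7%, then 52.5% and 55.3% (log2 odds ratio without Abf1 1.42 ± 0.15, limma-moderated adjusted p = 9.29e-13). The next tile, up to base 800, gave 83.8% and 84.7%, then 67.1% and 66.3%, then 85.2% and 82.3% (−1.41 ± 0.24, limma-moderated adjusted p = 1.45e-05). In each of the 3 tiles the no Abf1 libraries were separate from all others. The single CpG at base 138 went from 72.6% in WT Abf1 to 28.3%, that at base 413 from 51.4% to 79.8%, and that at base 682 from 82.7% to 57.2%. An Abf1 match lies 146 bp upstream of the start codon. A second one is centred at base 24 of the coding sequence, and its flanks did not pass the test (limma-moderated adjusted p = 0.997).

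SEC16 (YPL085W, chrXVI, plus strand), which encodes a scaffold of COPII vesicle formation, rose at its very start. Bases 1 to 200, printed above, were occupied at 68.9% and 72.9% in WT Abf1, 87.3% and 89.3% without Abf1, and 68.7% and 67.4% in the libraries labelled EM shuffle. All no Abf1 libraries exceeded all others, and the log2 odds ratio was 1.63 ± 0.18 (limma-moderated adjusted p = 6.04e-12). The CpG at base 138 went from 61.1% to 91.7%, whereas that at base 221 went from 82.3% to 56.5%. Within the first 1000 bp these differences cancelled, at 72.7% and 75.2% in WT Abf1 and 75.7% and 74.5% without Abf1 (0.09, limma-moderated adjusted p = 1.00). The middle of SEC16 had a log2 odds ratio of −0.16 (limma-moderated adjusted p = 0.0781) and the last 500 bp of 0.17 (adjusted p = 1.00), so that neither passed. Here an Abf1 match lies 284 bp upstream of the start codon, and another is centred at base 345, with a log2 odds ratio of its flanks of 0.03 (limma-moderated adjusted p = 0.981).

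**Figure D4:**
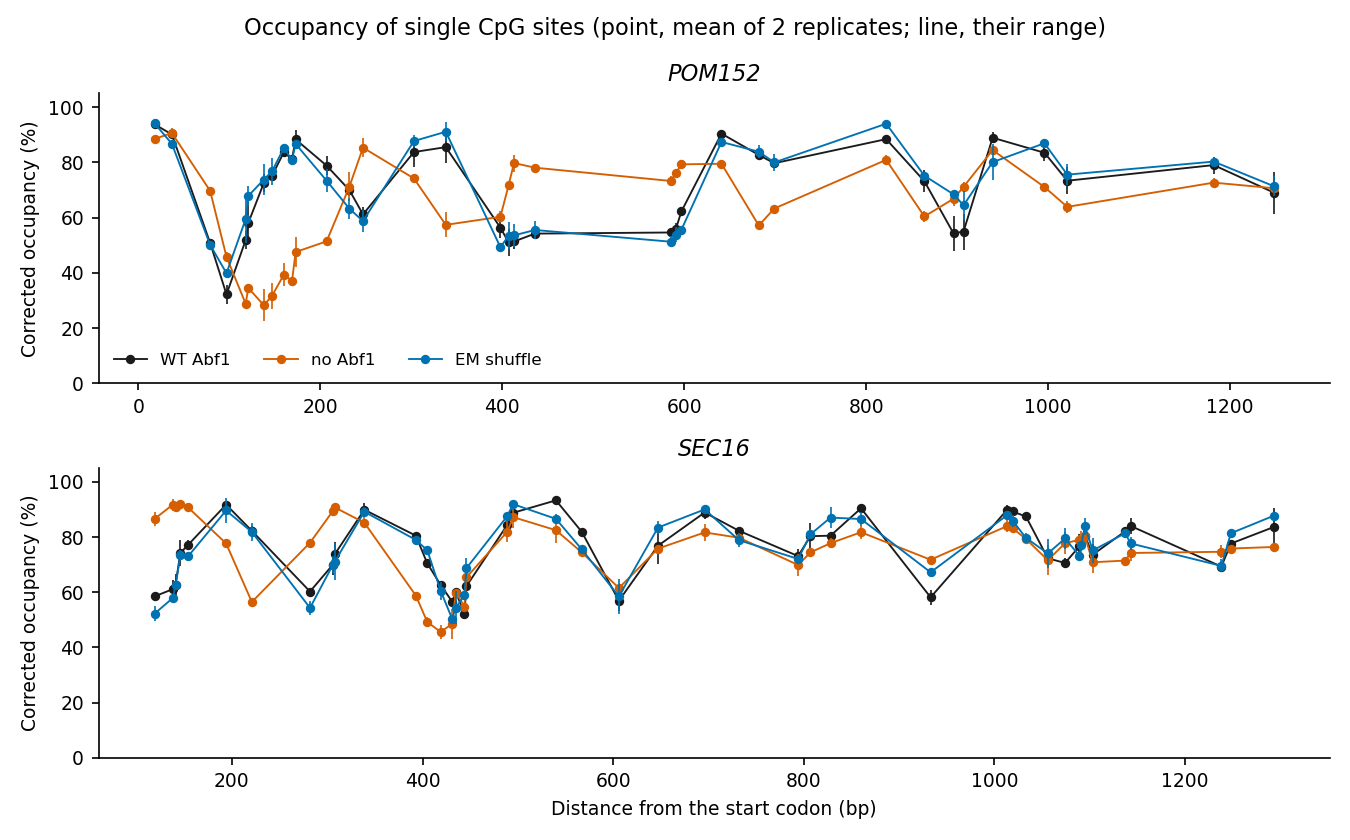
Corrected occupancy (%) of single CpG sites in POM152 (top) and SEC16 (bottom) against the distance (bp) from the start codon. Points are means of 2 replicates and vertical lines their range. In POM152 the no Abf1 points lie at 28.3% at base 138, where both other constructs lie above 70%, and above them around bases 400 to 600.

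Among the tiles that rose without Abf1, the largest values after SEC16 were in Ty genes and in POM152. The Ty2 gene YFL002W-A rose in its second tile, which ends at base 400, from 49.9% and 58.8% to 76.9% and 79.9% (1.61), and the Ty3 gene YGR109W-B at bases 1601 to 1800 from 44.3% and 43.4% to 69.0% and 68.7% (1.50). Both tiles hold the coding Abf1 match printed above. YMR196W, of unknown function, rose in the tile that ends at base 1200 from 59.7% and 66.6% to 82.7% and 79.2% (1.35). Among those that fell, FMP27 went at bases 401 to 600 from 90.6% and 90.0% to 77.1% and 73.0% (−1.58), with 2 CpG sites behind the value. RET1, the second-largest subunit of RNA polymerase III, fell at bases 1 to 200 from 84.5% and 85.3% to 72.5% and 70.6% (−1.14). SPF1, a P-type ATPase of the endoplasmic reticulum, fell at bases 1201 to 1400 (−1.10), and UTP10, a component of the small-subunit processome, at bases 5001 to 5200 from 82.1% and 83.6% to 70.4% and 68.1% (−1.09). The libraries labelled EM shuffle lay nearer to WT Abf1 than to no Abf1 in these tiles, apart from replicate 1 in YMR196W with 73.6%, and had 86.8% and 86.8% in UTP10 and 94.0% and 91.7% in FMP27.

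Most middle tiles were uniform. Of 6279 middle tiles with at least 3 CpG sites, the median occupancy in WT Abf1 was 80.0%, 5% lay below 73.8% and 5% above 85.3%, and 31 lay below 65% and 6 below 50%. The most accessible in members without repeated sequence were in TOP2, TAF2, PDR10, STE6 and CSR2. TAF2, a TFIID subunit, lay at 56.8% and 58.3% in WT Abf1 at bases 2601 to 2800, and the transporter gene PDR10 at 58.8% and 58.5% at bases 1601 to 1800. TOP2, DNA topoisomerase II, had 52.1% and 61.3% in WT Abf1 at bases 1801 to 2000, 42.2% and 38.3% without Abf1, and 30.6% and 35% in the libraries labelled EM shuffle. TOP2 fell in both comparisons, which share the WT Abf1 preparations, with a log2 odds ratio of −1.01 without Abf1 (limma-moderated adjusted p = 5.98e-05) and of −1.15 under the EM shuffle label (adjusted p = 0.000468).

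A noncoding Abf1 match between 50 and 500 bp ahead of the start codon was present in 106 members and absent in 406. In WT Abf1 the first 1000 bp of members with a match differed from those without by 0.124 and −0.129 percentage points. Without Abf1 this difference was −0.776 and −0.831, and in the libraries labelled EM shuffle −0.660 and −0.719. The WT Abf1 values thus lay above the other 4. No Abf1 minus WT Abf1 was −0.801 ± 0.183 points (p = 0.333 in the exact permutation test). In the first 1000 bp, 29 of 522 tiles of members with a match changed without Abf1, 5 higher and 24 lower, or 5.56%. In members without a match it was 48 of 1977, 17 higher and 31 lower, or 2.43%. Of the 15 first segments called above, 8 belonged to members with a match, and of the 8 middles, 6 did. Over all coding sequences, 2.89% of tiles in the first 1000 bp, 2.6% of first segments and 0.662% of middles were called. These shares over all coding sequences were not split by match. POM152, SEC16, SLA1, PRP8, URB1, FMP27, RET1 and SPF1 all had a match, between 134 and 284 bp upstream, whereas KAP120, TPS3, LAM4, YMR196W and UTP10 had none. Of the other first segments called, those of FUN12, HMG2, KIC1 and YGR109W-B belonged to members with a match. Those of SAK1, RAT1, GDH2, AUS1, YHR214C-B and YJR029W did not.

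The Abf1 consensus was also searched inside coding sequence on both strands. It occurred 145 times in 132 members, which is 25.8% of members against 12.2% of all intron-less coding sequences, which are shorter. As controls served the same consensus with a shortened or lengthened spacer, called spacing-changed (544 matches in 309 members, 60.4% of members and 29.0% of all coding sequences). The Reb1 motif TTACCCG was a further control (50 matches in 47 members, 9.18% and 3.54%). Occupancy was taken from CpG sites 10 to 75 bp to either side of the centre of a match, and 129 Abf1 matches in members had enough of them. Their flanks averaged 74.0% and 76.7% in WT Abf1, 78.3% and 77.2% without Abf1, and 76.4% and 76.1% in the libraries labelled EM shuffle. Flanks of spacing-changed matches averaged 76.3% and 79.2% in WT Abf1, and 77.9% and 77.1% without Abf1. The Abf1 class differed by 2.39 ± 2.10 points between no Abf1 and WT Abf1, and in the spacing-changed class the WT Abf1 replicates enclosed both no Abf1 values.

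Single Abf1 matches differed strongly. Without Abf1, 14 of 129 matches in members had higher flanks and 0 lower, where 10.8% of all 595 coding Abf1 matches were called higher and 2.69% lower. At an unadjusted p under 0.05, 24 were higher and 5 lower. Among the spacing-changed matches of members, 2 of 496 were higher and 1 lower (2.86% of all such matches were called), and among Reb1 matches 0 of 42 were higher and 1 lower (4.61% of all called). The median log2 odds ratio was 0.07 for Abf1 matches in members and 0.05 for all coding Abf1 matches. By place, 4 of 43 Abf1 matches were called in the first 1000 bp, 4 of 64 in the middle and 6 of 22 in the last 500 bp, all with higher flanks. Of all coding Abf1 matches at these places, 8.92%, 5.45% and 15.7% were called higher. The plot of match flanks shows these values beside the controls.

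**Figure D5:**
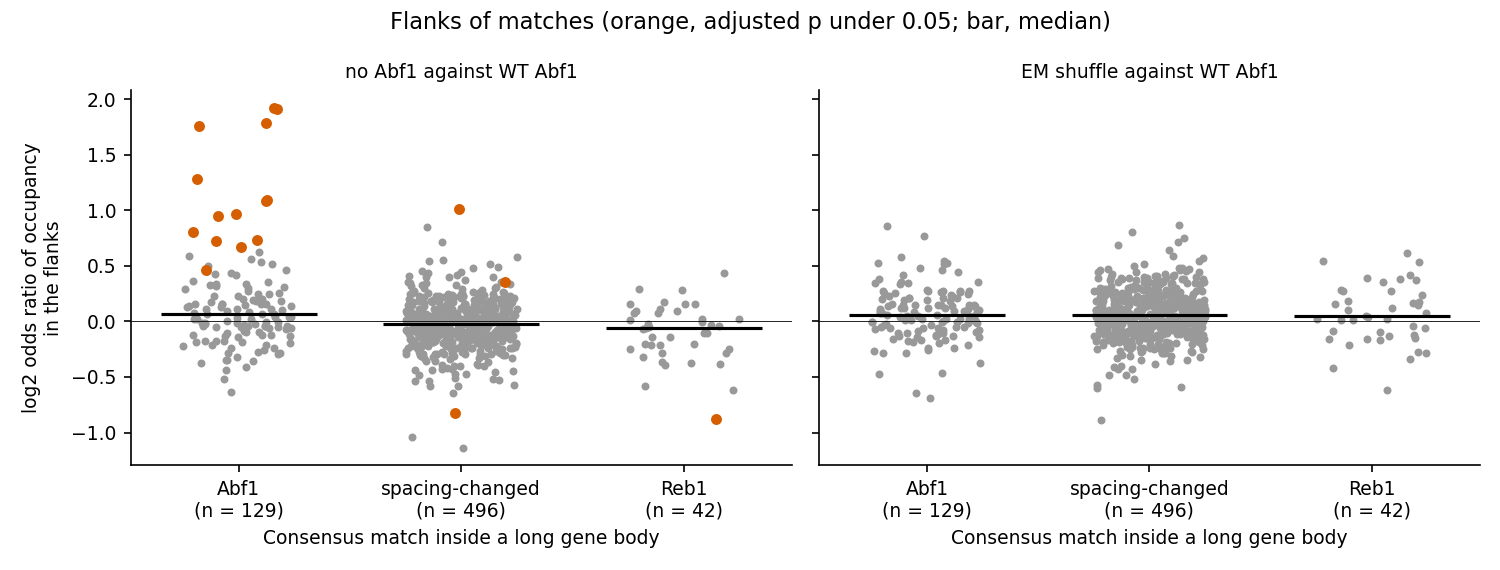
Log2 odds ratio of occupancy in the flanks of 129 Abf1, 496 spacing-changed and 42 Reb1 matches inside long bodies, for no Abf1 against WT Abf1 (left) and EM shuffle against WT Abf1 as labelled (right). Each point is a match, bars are medians, and orange points passed the adjusted threshold. On the left, 14 orange points stand above 0 in the Abf1 column, and on the right there are none.

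The Ty3 genes YIL082W-A and YGR109W-B carried the same Abf1 match, seen in their printed sequences, at bases 1828 to 1840 and 1750 to 1762. Flanks of YIL082W-A were occupied at 29.3% and 37.9% in WT Abf1, 67.3% and 64.3% without Abf1, and 39.9% and 34.7% in the libraries labelled EM shuffle (1.92 ± 0.18 without Abf1, limma-moderated adjusted p = 6.59e-11). Flanks of YGR109W-B gave 41.5% and 40.8%, then 72.9% and 71.6%, then 47.8% and 47.5% (1.91 ± 0.16, limma-moderated adjusted p = 1.14e-12). In both, all no Abf1 libraries lay above all others. The Ty2 genes YFL002W-A (1.78) and YGR161W-B (1.08) shared another match at bases 320 to 332. As these sequences are repeated, reads may have been exchanged between copies. MNN4, a regulator of mannan phosphorylation, is a single-copy gene with the match on chromosome XI, 2 CpG sites behind its value and flanks at 50.3% and 43.9%, then 74.1% and 75.1%, then 59.1% and 61.5% (1.76 ± 0.24, limma-moderated adjusted p = 6.91e-07).

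The other 9 genes were TSC11 (1.28), PSD2 (1.09), FAS2 (0.97), EDE1 (0.95), RSE1 (0.80), GLT1 (0.74), SEC3 (0.72), STU1 (0.67) and GSC2 (0.46). TSC11, a TORC2 subunit, had flanks at 44.7% and 44.1% in WT Abf1, 66.7% and 65.2% without Abf1, and 47.6% and 31.6% in the libraries labelled EM shuffle. STU1, a microtubule-binding protein, had 40.0% and 38.4%, then 50.5% and 51.8%, then 39.4% and 36.2%. In the printed TSC11, PSD2, GLT1 and STU1 the match ends at base 4252 of 4293, 3383 of 3417, 6402 of 6438 and 4537 of 4542, so that part of their flanks lies behind the stop codon. In GLT1 the match overlaps a spacing-changed match on the other strand, which is 1 of the 2 spacing-changed matches called higher. The calls of SEC3 and GSC2 were lost under 8 of 18 and 12 of 19 alternatives.

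With the EM shuffle label set against WT Abf1, few single segments, tiles or matches of these bodies passed the test. The offset of 0.26 was taken out before this test. As a set the segments were still shifted, with a median log2 odds ratio of 0.05, 1065 higher and 465 lower. Without Abf1 that median was −0.04, with 562 higher and 968 lower. Whole members, relative to the genome average, differed from WT Abf1 by 0.973 ± 0.170 points under this label. Without Abf1 the same difference was −0.494 ± 0.158. Of 1530 segments 1 changed under the EM shuffle label, the first 1000 bp of the Y′ helicase YRF1-2, where 0.0446% of all segments were called. YRF1-2 was occupied at 75.1% and 78.8% in WT Abf1, 77.3% and 76.2% without Abf1, and 83.0% and 82.4% in the libraries labelled EM shuffle (0.52 ± 0.10, limma-moderated adjusted p = 0.000633). It is repeated at other chromosome ends. At an unadjusted p under 0.05 there were 69 higher and 11 lower segments. Without WT Abf1 replicate 2 there were 54 calls, without either replicate labelled EM shuffle 0, and without the offset 713. Among 10264 tiles 6 changed, 4 higher and 2 lower, where 0.0932% of all tiles were called. They included the first 200 bases of YRF1-2 (0.88) and of YHR214C-B (1.07), bases 2801 to 3000 of the helicase gene ECM32 (0.73) and the TOP2 tile described above. The count of 6 tiles was 3 without either no Abf1 replicate and without replicate 1 labelled EM shuffle. Of 129 Abf1 matches 0 changed, where 0.504% of all coding Abf1 matches were called, and at an unadjusted p under 0.05 with the same limma-moderated model 8 were higher and 1 lower. Leaving out either replicate labelled EM shuffle gave 1 called match.

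Set against no Abf1, the EM shuffle label came with 31 segments that differed, 28 higher and 3 lower, where 1.13% of all segments were called. Of these, 17 were middles, all higher, by 0.17 to 0.33 on the log2 scale, where 0.967% of all middles were called higher, led in significance by STT4 (0.32) and REA1 (0.17, limma-moderated adjusted p = 2.96e-05). The others that were higher included the last 500 bp of UTP10 (0.65) and of ECM32 (0.57) and the first 1000 bp of NUP159 (0.57), a nuclear pore protein, of YRF1-2 (0.50), of the tricalbin TCB3 (0.50) and of POM152 (0.47). NUP159 gave 77.7% and 74.7% without Abf1 and 83.0% and 83.0% in the libraries labelled EM shuffle. Lower were the last 500 bp of TPS3 (−0.68), of GLT1, the glutamate synthase (−0.67), and of SNU114, a spliceosomal GTPase (−0.55). GLT1 gave 76.5% and 75.9% without Abf1 and 66.7% and 66.1% in the libraries labelled EM shuffle, with WT Abf1 between them at 70.9% and 71.4%. These segment counts ranged widely, with 82 without either WT Abf1 replicate, 15 and 6 without no Abf1 replicate 1 or 2, and 4 and 0 without replicate 1 or 2 labelled EM shuffle. Without the offset 1277 segments were called, 1275 of them higher. Over all coding sequences 19 middles were called higher, 17 of them in members. The middle of a member held a median of 62 CpG sites and that of a medium gene 15. The median log2 odds ratios of these middles were 0.10 and 0.09.

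Among tiles, 119 differed in this comparison, 85 higher and 34 lower, where 1.55% of all tiles were called. The largest were the same places as above: FMP27 at bases 401 to 600 (2.05), UTP10 in the tile that ends at base 5200 (1.50) and POM152 at 1 to 200 (1.42, limma-moderated adjusted p = 2.16e-18) were higher, and SEC16 at 1 to 200 (−1.82, adjusted p = 1.38e-13), YFL002W-A in its second tile (−1.68) and YGR109W-B at 1601 to 1800 (−1.46) were lower. The tile count was 213 without either WT Abf1 replicate, 72 and 53 without no Abf1 replicate 1 or 2, and 46 and 19 without replicate 1 or 2 labelled EM shuffle. Of the 129 Abf1 matches, 15 were lower and 0 higher, where 10.3% of all coding Abf1 matches were called lower. This count was 7 without no Abf1 replicate 1 and 6 without replicate 2 labelled EM shuffle. Comparisons with no Abf1 share its 2 preparations with the comparison above.

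Long genes encode recurrent kinds of proteins, and 15 such groups were counted in all 3 comparisons. Their median occupancy over whole bodies in WT Abf1 lay between 77.6% for the cohesin and condensin group and 80.6% for the large RNA polymerase subunits, against a median of 78.9% over all members. Their median phasing index was highest in the flocculins, at 1.53, against 1.26 over all members. Without Abf1, the large RNA polymerase subunits, the Snf2-family remodelers, the phosphatidylinositol kinase-like kinases, the replicative polymerases with topoisomerase II, the cohesin and condensin group, the nuclear pore proteins, the P-type ATPases, the vesicle coat and tether group, the glucan and chitin synthases, the motors and formins, and the flocculins and mucins had 0 called segments among 6, 12, 5, 5, 11, 12, 12, 9, 5, 10 and 8 tested genes. At their first 1000 bp, their median log2 odds ratios were −0.24, −0.12, −0.02, 0.02, −0.06, −0.13, −0.03, −0.07, −0.02, −0.09 and −0.08, and the median over all first segments was −0.05. The large RNA polymerase subunits, which include RET1, had the lowest of these medians. The nuclear pore group did not include POM152, whose first 1000 bp were called lower without Abf1 (−0.43). Groups were counted by segment, so that a group with 0 called segments could still hold called tiles. The polymerase subunit genes RPO31, RET1, RPA190 and RPA135 each had tiles called lower without Abf1 and 0 called higher.

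In the remaining groups at least 1 segment was called without Abf1, where 2.6% of all first segments, 0.662% of all middles and 0.82% of all last segments were called. Among 14 ABC transporters AUS1 was higher in its first 1000 bp and YBT1, a bile acid transporter of the vacuole, lower in its middle (−0.24, limma-moderated adjusted p = 0.0341). Among 8 tested multidomain biosynthetic enzymes FAS2 was higher in its last 500 bp. Among 8 spliceosome and RNA helicase genes PRP8 was lower in its first 1000 bp and its middle. Among 8 translation factors FUN12 was lower in its first 1000 bp and GCN1, which activates the kinase Gcn2, in its middle (−0.22, limma-moderated adjusted p = 0.000996). In the libraries labelled EM shuffle, 0 segments of these groups differed from WT Abf1. Against no Abf1 the higher ones were in SNF2, RPO31, TOR2, NUP120, NUP159 in both of its segments, YBT1, URA2, HFA1, BRR2 and GCN1. The lower one within these groups was the last 500 bp of GLT1. The groups did not include SNU114, called lower in its last 500 bp, or POM152, called higher in its first 1000 bp. Each group thus held at most 3 called segments in any comparison.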

How the data were processed

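CpG methylation was read by Nanopore sequencing in 12 libraries. The authors called bases and 5-methylcytosine with Dorado, aligned with minimap2 2.17, used SAMtools 1.9 and 1.15 and summed calls per position with modkit on build sacCer3. The deposited files give, per CpG and strand, the methylated fraction after division by a correction ratio per construct, that ratio, and the count of valid calls. Occupancy is 1 minus the corrected fraction.

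Methylated calls were rebuilt as fraction times ratio times count, both strands and both aliquots were summed, and sites needed at least 5 calls in every library (353646 of 354295 kept). Segments, tiles of 200 bp and match flanks with at least 2 CpG sites were tested with a quasi-binomial logistic model (pseudocount 0.5, genome average of the construct as offset), variances moderated by limma 3.58.1 in R 4.3.3, and Benjamini-Hochberg adjustment over each whole table at 0.05. Means over members were compared by exact permutation (Python 3.11.15, numpy 2.4.6, pandas 2.3.3, scipy 1.17.1). The scripts were tested on simulated data. No separate depth interval was added, since the spread between preparations includes counting error.

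Members, gene groups and lists were chosen with earlier results of these data known. The named genes are the 5 longest members, the 3 highest and 3 lowest in occupancy, SEC16, the 5 most accessible middle tiles, and, among calls whose libraries did not overlap, up to 6 segments, 5 tiles (3 in comparisons with EM shuffle) and 4 Abf1 matches per direction with the largest log2 odds ratios; further genes were named after their values were seen. One further gene group is not reported here. Replicate numbers did not pair preparations. Alternatives covered the offset, the correction factor, filters, tools, aliquots, single preparations and repeated members.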

Additional observations from a re-analysis of the deposited data

Results flagged for a closer look

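In 11 of 216 groups of 4 libraries, 5.09%, a single library stood apart from the other 3 by Dixon's criterion at 95%, and chance alone flags about 1 in 20 groups. In the Ty1 gene YHR214C-B, bases 1 to 1000, the 3 h library of WT Abf1 replicate 1 had 39.4% against 41.7% to 42.1%, and the 3 h library of no Abf1 replicate 2 had 51.8% against 49.8% to 50.1%. In KAP120, bases 1 to 1000, the 4 h library of WT Abf1 replicate 1 had 71.7% against 77.5% to 78.4%. In the last 500 bp of ECM32 the 3 h library of EM shuffle replicate 1 had 64.4% against 67.8% to 68.0%.

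In REA1, bases 1 to 1000, the 3 h library of EM shuffle replicate 2 had 79.3% against 76.8% to 77.2%. In TRA1 that library had 83.1% in the middle against 79.8% to 80.0%, and in the last 500 bp the 3 h library of EM shuffle replicate 1 had 78.9% against 82.3% to 82.6%. Among match flanks, YIL082W-A had 70.4% in the 4 h library of no Abf1 replicate 1 against 63.9% to 64.6%, and YGR161W-B had 48.4% in the 4 h library of EM shuffle replicate 2 against 54.3% to 54.8%. STU1 had 41.7% in the 4 h library of WT Abf1 replicate 1 against 38.2% to 38.5%, and GSC2 had 47.6% in the 3 h library of EM shuffle replicate 2 against 36.2% to 37.6%.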

How the results depend on the processing

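Without single preparations, the first 1000 bp minus the middle ranged from −3.82 to −3.70 percentage points, the last 500 bp minus the middle from −3.50 to −3.25, long minus medium genes from 0.60 to 0.661, 4 h minus 3 h in the middle from −1.46 to −1.37 and the phasing index of the first 1000 bp minus the middle from 0.344 to 0.360. Direction was kept in all of these, and 5 preparations cannot give an exact p below 0.0625. No Abf1 minus WT Abf1 ranged from −2.02 to 0.786 points and EM shuffle minus WT Abf1 from −0.608 to 2.19. The phasing difference of the first 1000 bp, no Abf1 minus WT Abf1, ranged from −0.0127 to 0.0442, and was −0.00937 without repeated members and −0.00911 without sites in overlapping coding sequences. That of the middle was −0.0531 with 4 h aliquots and −0.0157 without repeated members. The amplitude of EM shuffle minus WT Abf1 ranged from −0.0332 to 0.226 and was −0.484 without the correction factor and −0.019 with 4 h aliquots.

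Without single preparations, called segments ranged from 4 to 165 (no Abf1 against WT Abf1), 0 to 54 (EM shuffle against WT Abf1) and 0 to 82 (EM shuffle against no Abf1), called tiles from 61 to 173, 3 to 8 and 19 to 213, and called Abf1 matches from 11 to 14, 0 to 1 and 6 to 18. In the same order of comparisons, no offset gave 123, 713 and 1277 segments, 289, 624 and 4906 tiles, and 15, 8 and 41 matches. These went 3 higher and 120 lower for the first segment count, 40 and 249 for the first tile count, 4887 and 19 for the last tile count, and 33 and 8 for the last match count. An offset per preparation gave 92, 6 and 175 segments, 247 and 259 tiles in the first and last comparison, and 1 match in the second. With limma on logit values there were 4, 0 and 7 segments, and 67 and 3 tiles in the first and second. With only the 2 constructs compared there were 11 and 82 segments in the first and last, and 3 and 213 tiles in the second and last. The 3 h aliquots alone gave 6, 0 and 2 segments, 53, 0 and 20 tiles and 7 matches in the last, and the 4 h aliquots alone 5, 0 and 12 segments, 29, 1 and 53 tiles, and 9 and 8 matches in the first and last. Tiles of 500 bp gave 35, 1 and 39 calls. Without repeated members the second comparison had 0 segments and 3 tiles. Requiring 5 CpG sites left 8 and 7 matches in the first and last, and in the second a coverage minimum of 10 or 20 gave 1 match each and flanks to 150 bp gave 2.

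With the replicate number as a block, 11, 1 and 16 segments, 117, 3 and 95 tiles and 13, 1 and 15 matches were called. Same-numbered preparations had correlations of −0.0174, −0.0146 and −0.00998 over 11209 segments, so the numbers were not taken as pairs.

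Of 1721 alternative values for 96 named features, 1252 kept direction and call, 463 lost the call, 3 gained it and 3 changed sign: SEC16 first 1000 bp with −0.0017 without the offset, the SEC3 match with −0.0408 with flanks to 150 bp, and the YJR029W middle, which ranged from −0.257 without WT Abf1 replicate 1 to 0.0174 without WT Abf1 replicate 2. The phasing difference between the first 1000 bp and the middle was 0.442 when products were taken between 3 h and 4 h aliquots, an alternative chosen after seeing the data. With 2 preparations per construct, construct means cannot pass an exact test.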
